A study of Mus musculus with 33 samples.

Results

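Blood clotting and clot dissolution depend on plasma proteins that are made mostly by hepatocytes, and 36 genes of this system were followed in mouse liver. They were chosen by function: fibrinogen chains and their cross-linking, procoagulant factors, vitamin K dependent proteins, inhibitors, fibrinolysis, and the enzymes and receptors that finish and export these factors. Of the 36 genes, 34 had a probe set annotated to that gene alone, and 31 were bright enough to be tested among 9005 genes. Kng2 and Cpb2 had no such probe set and were not analysed here. Plat, Plau and Plaur reached a log2 value of 4 on 0 of the 33 arrays and were tested only in an alternative with no filter on dim probe sets.

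The study compared liver RNA of male C57BL/6J mice, 17 weeks old, after 2 weeks on 1 of 3 diets, and each mouse gave 1 Affymetrix expression array. The control diet (n = 10) was a research diet with sunflower oil supplying 7% of energy, 81.3% of that oil being oleic acid. The fenofibrate diet (n = 12) held the same oil plus fenofibrate at 0.03% by weight. The fish oil diet (n = 11) replaced the sunflower oil, at the same 7% of energy, with fish oil holding 23.1% eicosapentaenoic acid (EPA) and 21.1% docosahexaenoic acid (DHA). All mice were of 1 strain and 1 sex, were housed at 2 per cage and were fasted in the morning before they were killed. The control diet was therefore itself an oil-supplemented diet, and cage mates cannot be told from the labels.

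Clotting runs as a chain of proteases, each of which activates the next zymogen, until thrombin cuts fibrinogen into fibrin. Several of these zymogens, and the inhibitors protein C and protein S, need a vitamin K dependent carboxylation in the hepatocyte before they can bind to membranes, and plasmin later dissolves the fibrin. Fenofibrate is a ligand of the nuclear receptor PPARα, and EPA and DHA are fatty acids that can bind the same receptor.

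Values are log2 expression levels per probe set (a set of short probes for 1 transcript), so a difference of 1 is a 2-fold difference. Levels of different genes cannot be compared, because probe sets differ in affinity. Array medians lay between 2.90 and 2.97, and between 16401 and 16781 probe sets reached 4 on each array. All 6 hepatocyte markers examined (Alb, Ttr, Ahsg, Fetub, Apoa1, Rbp4) were at 11.41 or above on every array. Control replicates 1 and 2 stood apart in acute phase genes, with median deviations of 0.89 and 1.40 from the control mean, against -0.48 to 0.05 in the other controls. Fish oil replicate 9 was at 0.73 on that measure, against -0.32 to 0.03 in the other fish oil arrays. Control replicate 9 had the lowest median deviation of the clotting genes among controls, -0.12. The counts of clotting genes are also given without control replicates 1, 2 and 9, as are values of F13b, F11, Klkb1, F5, Proc and other genes in which 1 or more of these arrays were low. Differences were tested with limma in 1 model of the 33 arrays, and calls were made where p, adjusted by Benjamini and Hochberg's method over all 9005 genes, was under 0.05. Of the 6 hepatocyte markers, Fetub (-0.79), Ahsg (-0.49), Apoa1 (-0.14) and Rbp4 (-0.10) were called lower on fenofibrate. Alb and Ttr were not called there. On fish oil only Apoa1 was called (-0.14). In bulk liver fewer cells of a type and less RNA per cell cannot be told apart.

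On fenofibrate, 26 of the 31 tested genes fell and 1 rose. Over all genes, 18.9% were called lower and 22% higher in that comparison. On fish oil 7 of the 31 fell and 0 rose, where 7.00% of all genes were called lower and 7.53% higher. Between the diets, 23 of 31 were lower on fenofibrate than on fish oil and 1 was higher, against 19.1% and 19.8% of all genes. The 3 comparisons share arrays, so these counts are not independent of each other. The 31 genes had a median difference from control of -0.32 on fenofibrate and -0.08 on fish oil, and of -0.22 between fenofibrate and fish oil. The medians over all genes were 0.00, 0.01 and -0.01. At an unadjusted p under 0.05 limma gave 28, 9 and 26 of the 31. Without control replicates 1, 2 and 9, an alternative chosen after seeing the data, 25 genes fell on fenofibrate and 6 on fish oil. Without fish oil replicate 9 the counts were 26 and 7, and 22 between the diets. The fish oil count was 4 with consecutive label numbers as a random block (Mcfd2, F12 and Serpinc1 were lost), and over the alternatives it ran from 4 to 10.

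**Figure D1:**
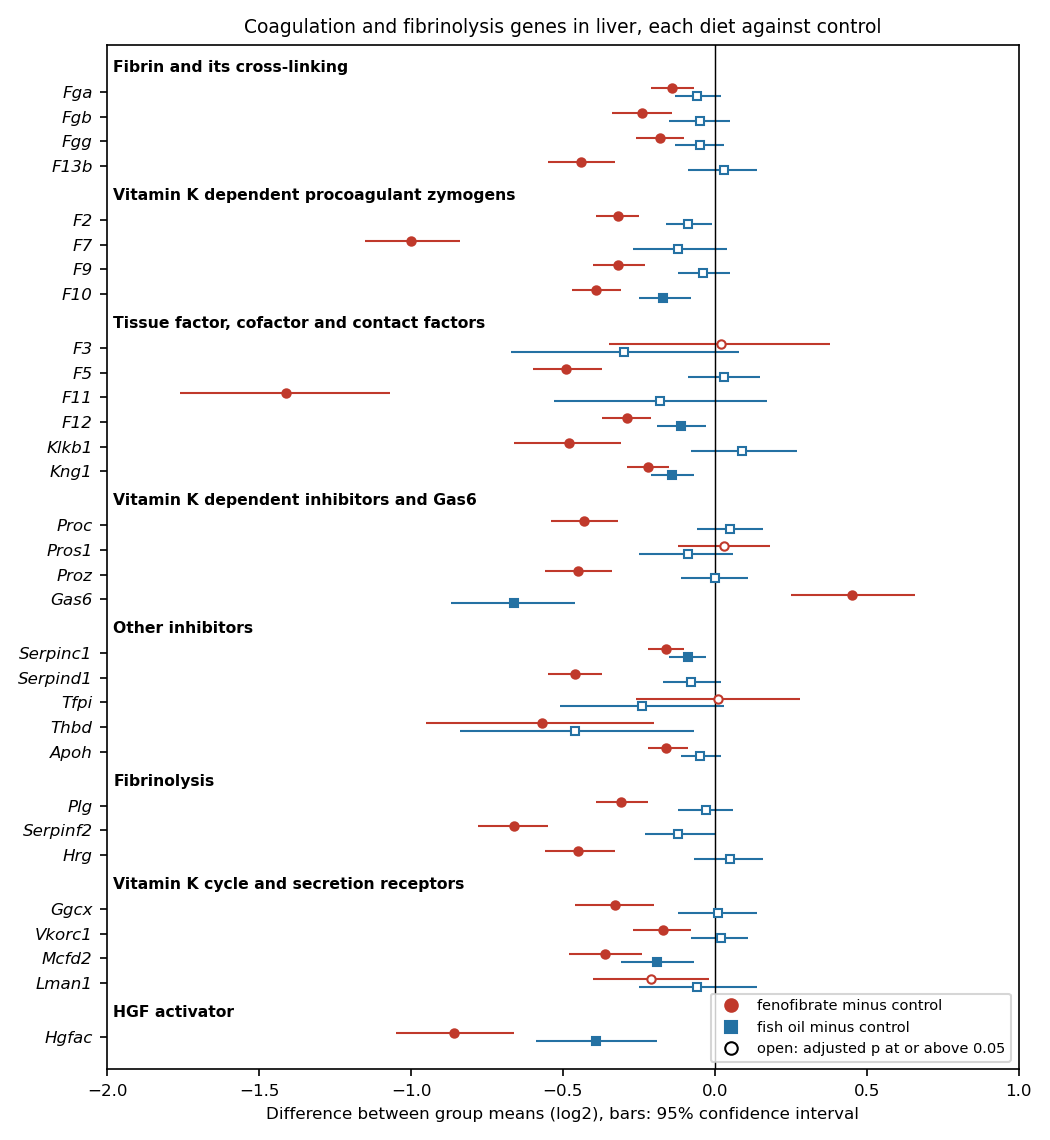
Difference between group means in log2 for the 31 tested genes, grouped by role, for fenofibrate minus control (circles) and fish oil minus control (squares), with 95% confidence intervals; open symbols are genes whose adjusted p missed 0.05. Most circles lie left of 0, from -1.41 for F11 to 0.45 for Gas6, while the squares lie nearer 0, from -0.66 for Gas6 to 0.09 for Klkb1.

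In 11 of the 31 genes every fenofibrate array lay below every control array: F2, F7, F9, F10, F12, Kng1, Proz, Serpind1, Serpinf2, Mcfd2 and Hgfac. This held for 1.83% of all genes. For fish oil against control it held for 1 gene, Gas6, against 0.677% of all genes. Every fenofibrate array lay below every fish oil array in 13 of the 31 genes, against 2.25% of all genes. These were F13b, F2, F7, F9, F5, F11, F12, Klkb1, Proc, Proz, Serpind1, Serpinf2 and Hrg. For Gas6 every fenofibrate array lay above every fish oil array.

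**Figure D2:**
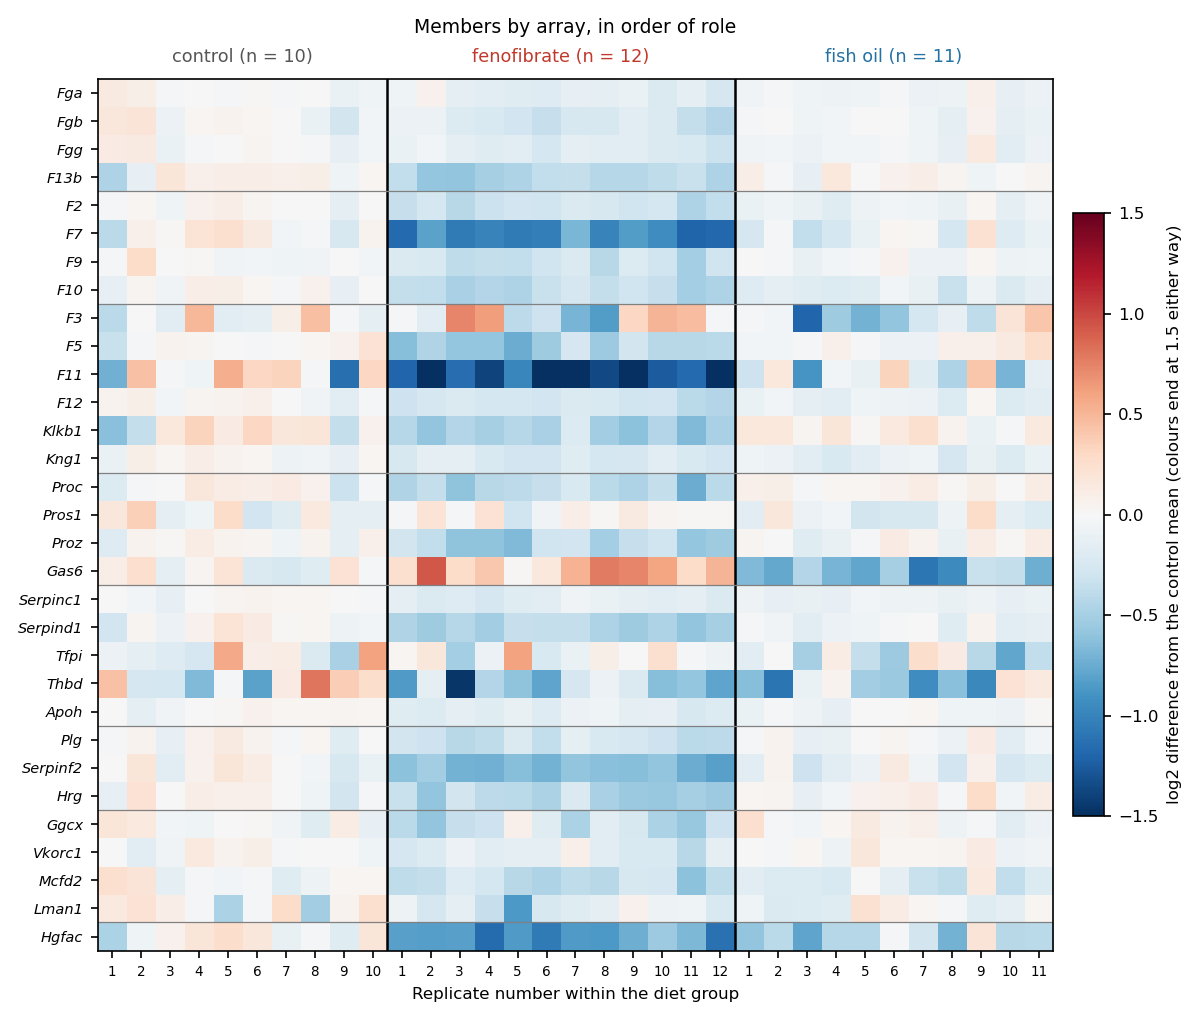
Each of the 31 genes on each of the 33 arrays, as the log2 difference from that gene's control mean (blue lower, red higher, colours ending at 1.5 either way); arrays are in columns by diet and replicate number, and grey lines separate the roles. The 12 fenofibrate columns are blue through most rows, deepest for F11, F7 and Hgfac, Gas6 is red on fenofibrate and blue on fish oil, and control replicates 1 and 9 are the low controls for F11.

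Stretches just upstream of the transcription start of 5 genes are shown. They belong to the 3 largest falls on fenofibrate (F11, F7, Hgfac), to a fibrinogen chain (Fgb) and to the gene that moved the opposite way on the 2 diets (Gas6). They are RefSeq sequences of assembly GRCm38.p6, written 5′ to 3′ on the gene's own strand, and capitals mark motif matches found on either strand. F11 lies at chr8:45262056-45262205 on the minus strand, F7 at chr8:13025992-13026021 on the plus strand and Hgfac at chr5:35041359-35041508 on the plus strand. Fgb lies at chr3:83049864-83050013 on the minus strand, and Gas6 at chr8:13494536-13494685 on the minus strand.
F11: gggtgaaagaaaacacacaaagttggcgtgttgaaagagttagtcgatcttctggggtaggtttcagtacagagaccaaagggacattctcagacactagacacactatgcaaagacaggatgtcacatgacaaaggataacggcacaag
F7: ctccccccTGACCTTTGCCCTcccggcagc
Hgfac: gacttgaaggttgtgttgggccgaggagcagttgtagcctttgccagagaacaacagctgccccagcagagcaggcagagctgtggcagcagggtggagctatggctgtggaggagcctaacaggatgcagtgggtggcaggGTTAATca
Fgb: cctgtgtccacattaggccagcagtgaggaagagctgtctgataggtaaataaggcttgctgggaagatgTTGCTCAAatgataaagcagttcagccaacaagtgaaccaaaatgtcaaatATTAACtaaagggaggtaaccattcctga
Gas6: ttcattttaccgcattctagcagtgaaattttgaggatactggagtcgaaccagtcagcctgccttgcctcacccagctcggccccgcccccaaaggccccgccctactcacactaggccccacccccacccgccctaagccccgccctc
The capitals in F7, at -34 to -22 from the transcription start, match the DR1 element of HNF4 and PPAR receptors on the opposite strand. That element is a pair of AGGTCA copies with 1 base between, searched here with up to 1 mismatch. The capitals in Hgfac, at -8 to -3, match GTTAAT, the core of an HNF1 site. In Fgb they mark a C/EBP match (TTNNGNAA) at -80 to -73 and an HNF1 match at -29 to -24, both on the opposite strand. The stretches of F11 and Gas6 hold no match, but their 300-base windows hold 1 C/EBP match each, at -17 to -10 in F11 and at -228 to -221 in Gas6. The Fgb window also holds unmarked C/EBP matches at -206 to -199 and, across the end of the stretch, at -7 to 1. Unmarked STAT matches (TTCNNNGAA) lie at -162 to -154 in Fgb and at -167 to -159 in Hgfac. The F11 stretch ends at -25, just before the annotated span of the gene begins, and the stretches of Hgfac, Fgb and Gas6 end at -1. The annotated span of F7 begins further upstream, so for F7 only 30 bases around the DR1 match are shown. These bases lie inside that span and were picked by the match, unlike the 150-base stretches of the other genes.

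The 300-base RefSeq promoter windows, from 250 bases before to 50 after the start, were available for 29 of the 36 genes (30 promoters). GTTAAT was found in 6 of the 30 promoters (20%), namely those of F13b, F2, Fga, Fgb, Hgfac and Proz, and in 7.1% of all 32851 promoters. All 6 of these genes fell on fenofibrate, but so did 26 of the 31 tested genes (83.9%), so this count is no evidence about the motif. The C/EBP letters were in 18 of the 30 (60%) and in 40.7% of all promoters. The STAT letters TTCNNNGAA were in 5 of the 30 (16.7%), those of F9, Fga, Fgb, Hgfac and Pros1, and in 8.3% of all. The DR1 element was in 1 of the 30, F7, and in 0.554% of all. The C/EBP and STAT letters can overlap, and a match says only that these letters are in the window. Median GC content was 51.4% in these promoters and 52.4% in all. Several of the genes are direct neighbours in the RefSeq annotation of GRCm38.p6, with 0 protein-coding genes between them: F7, F10 and Proz on chromosome 8, F11 and Klkb1 elsewhere on chromosome 8, Fgg, Fga and Fgb on chromosome 3, and Hrg, Kng2 and Kng1 on chromosome 16.

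All 4 genes of fibrin and its cross-linking fell on fenofibrate, with a median difference of -0.21, and 0 of 4 were called on fish oil (median -0.05). F13b, the carrier subunit of the transglutaminase that cross-links fibrin, had the largest fall of the 4. Its control arrays ran from 11.51 through a median of 12.05 to 12.16. Fenofibrate arrays ran from 11.38 through 11.55 to 11.64, and fish oil arrays from 11.85 through 12.02 to 12.13. The fenofibrate arrays overlapped the controls only through control replicate 1, the lowest control, and lay wholly below the fish oil arrays. F13b fell by 0.44 ± 0.05 (SE; 1.35-fold lower; limma adjusted p = 7.66e-08) on fenofibrate, and by 0.53 (adjusted p = 1.30e-11) without control replicates 1, 2 and 9. On fish oil its difference from control was 0.03 ± 0.06, with a 95% interval of -0.09 to 0.14 (adjusted p = 0.820).

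The 3 fibrinogen chains, whose genes sit side by side, fell less. Fga, the alpha chain, was at 14.56, 14.65 and 14.80 (lowest, median and highest array) on control, at 14.41, 14.52 and 14.73 on fenofibrate and at 14.53, 14.60 and 14.73 on fish oil. The 3 groups overlapped, with fenofibrate lowest. Its fall on fenofibrate was 1.10-fold (-0.14 ± 0.04, limma adjusted p = 0.00229). Fgb, the beta chain, fell 1.18-fold (-0.24 ± 0.05, adjusted p = 1.71e-04), and Fgg, the gamma chain, fell 1.13-fold (-0.18 ± 0.04, adjusted p = 3.73e-04). On fish oil the chains differed from control by -0.06, -0.05 and -0.05 (adjusted p = 0.346, 0.568 and 0.417). All 3 probe sets lie near the top of the measured range, which ends at 15.6, where differences can be compressed. Fgb and Fgg were lower on fenofibrate than on fish oil (-0.19 and -0.13, adjusted p = 0.00171 and 0.00821). Fga was not called there (-0.08, adjusted p = 0.0579), but was called when control replicate 1, fenofibrate replicate 1 or 2, or fish oil replicate 10 was left out (lowest adjusted p = 0.0136). Fgg lost that call when the arrays with a letter A in their label were left out (-0.10, adjusted p = 0.0670).

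All 4 vitamin K dependent procoagulant zymogens fell on fenofibrate, with a median of -0.35, and in each of them every fenofibrate array lay below every control array. F7, the protease that starts the extrinsic pathway with tissue factor, moved most. Control arrays of F7 ran from 9.87 through 10.31 to 10.52, fenofibrate arrays from 9.08 through 9.25 to 9.59, and fish oil arrays from 9.90 through 10.17 to 10.51. Fenofibrate arrays were apart from both other groups, which overlapped almost fully. F7 was 1.99-fold lower on fenofibrate than on control (a log2 difference of -1.0 ± 0.08, limma adjusted p = 1.41e-12) and 1.84-fold lower than on fish oil (-0.88 ± 0.07, adjusted p = 1.36e-11). On fish oil the difference from control was -0.12 ± 0.08 (95% interval -0.27 to 0.04, adjusted p = 0.345). That difference was called in 1 alternative, with array weights (adjusted p = 0.0264).

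F10, which cuts prothrombin once activated, fell on both diets. Its arrays were at 12.25, 12.39 and 12.48 on control, at 11.88, 12.01 and 12.13 on fenofibrate and at 12.05, 12.20 and 12.34 on fish oil, so that fish oil arrays lay between the other groups and overlapped both. F10 was 1.31-fold lower on fenofibrate (-0.39 ± 0.04, limma adjusted p = 9.75e-10) and 1.12-fold lower on fish oil (-0.17 ± 0.04, adjusted p = 0.00416). Tested by themselves, its other 2 probe sets were also called lower on both diets, by -0.35 and -0.38 on fenofibrate and by -0.22 and -0.29 on fish oil. F2, which encodes prothrombin, and F9, whose loss causes haemophilia B, each fell 1.24-fold on fenofibrate (-0.32 ± 0.03 and -0.32 ± 0.04, adjusted p = 5.48e-09 and 1.51e-07). On fish oil F2 differed by -0.09 ± 0.04 (adjusted p = 0.106) and F9 by -0.04 ± 0.04 (adjusted p = 0.615). The F2 difference was called without control replicate 9 (adjusted p = 0.0459). All 4 zymogens were lower on fenofibrate than on fish oil, with a median of -0.25. For F10 this held at the brightest probe set (-0.22 ± 0.04), while the other 2 were not called between the diets (-0.13 and -0.10, limma adjusted p = 0.138 and 0.320).

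Of tissue factor, the cofactor and the contact factors, 5 of 6 tested genes fell on fenofibrate (median -0.39) and 2 of 6 on fish oil (median -0.12). F11, a contact-activated zymogen of the intrinsic pathway, had the largest difference of all 31 genes. Control arrays of F11 ran from 9.17 through 10.45 to 10.85, fenofibrate arrays from 8.46 through 8.93 to 9.32, and fish oil arrays from 9.41 through 10.15 to 10.71. Control replicates 1 and 9 were the 2 low controls, and fenofibrate arrays overlapped the controls only through replicate 9. F11 was 2.66-fold lower on fenofibrate than on control (-1.41 ± 0.17, limma adjusted p = 3.47e-08) and 2.35-fold lower than on fish oil (-1.23 ± 0.17, adjusted p = 2.88e-07). Without control replicates 1, 2 and 9 the fall was -1.61 (adjusted p = 2.50e-10). On fish oil the difference from control was -0.18 ± 0.17, with a wide 95% interval of -0.53 to 0.17 (adjusted p = 0.551).

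Klkb1, the neighbour of F11, encodes plasma prekallikrein of the contact system. Its arrays were at 11.48, 12.25 and 12.44 on control, at 11.44, 11.62 and 11.90 on fenofibrate and at 12.01, 12.25 and 12.34 on fish oil. Control replicates 1, 2 and 9 were low and fell among the fenofibrate arrays, while the fish oil arrays lay wholly above the fenofibrate arrays. Klkb1 was 1.40-fold lower on fenofibrate than on control (-0.48 ± 0.09, limma adjusted p = 2.50e-05) and 1.49-fold lower than on fish oil (-0.58 ± 0.08, adjusted p = 1.02e-06). Without those 3 controls its fall was -0.67 (adjusted p = 1.53e-11). F5, the cofactor that binds activated factor X, was at 12.14, 12.49 and 12.69 on control, at 11.73, 11.99 and 12.22 on fenofibrate and at 12.39, 12.46 and 12.74 on fish oil. Control replicate 1 was the low control of F5 as well, and fish oil arrays stayed within the control range except at the top. F5 fell 1.40-fold on fenofibrate (-0.49 ± 0.06, adjusted p = 2.84e-08; -0.53, adjusted p = 1.45e-08, without those 3 controls), with -0.49 at its second probe set also, and differed by 0.03 ± 0.06 on fish oil (95% interval -0.09 to 0.15, adjusted p = 0.812).

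Kng1 encodes kininogen, the carrier of prekallikrein and the source of bradykinin. Its arrays were at 13.94, 14.09 and 14.17 on control, at 13.77, 13.83 and 13.93 on fenofibrate and at 13.81, 13.95 and 14 on fish oil. Fenofibrate arrays were all below the controls, and fish oil arrays overlapped both groups. Kng1 fell 1.17-fold on fenofibrate (-0.22 ± 0.04, limma adjusted p = 5.47e-06) and 1.10-fold on fish oil (-0.14 ± 0.04, adjusted p = 0.00761). The second probe set of Kng1 differed by -0.44 on fenofibrate and by -0.11 on fish oil, where it was not called. Kng1 probe sets may also bind the transcript of the related Kng2. The difference between the diets was not called at the first probe set (-0.08, adjusted p = 0.0545) and was called at the second (-0.33). The first was called when any 1 of 7 arrays was left out (lowest adjusted p = 0.0324).

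F12, the zymogen that starts contact activation, fell 1.22-fold on fenofibrate (-0.29 ± 0.04, limma adjusted p = 1.48e-07). On fish oil its difference of -0.11 ± 0.04 was barely past the threshold (adjusted p = 0.0487) and lost the call when any 1 of 24 of the 33 arrays was left out (highest adjusted p = 0.0886). F3, which encodes tissue factor, the membrane receptor of factor VII, was dim and variable. It did not pass in any comparison, with 0.02 ± 0.18 on fenofibrate (95% interval -0.35 to 0.38, adjusted p = 0.951) and -0.30 ± 0.18 on fish oil (-0.67 to 0.08, adjusted p = 0.306). Its intervals are wide enough to hold differences as large as those of several genes called changed.

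**Figure D3:**
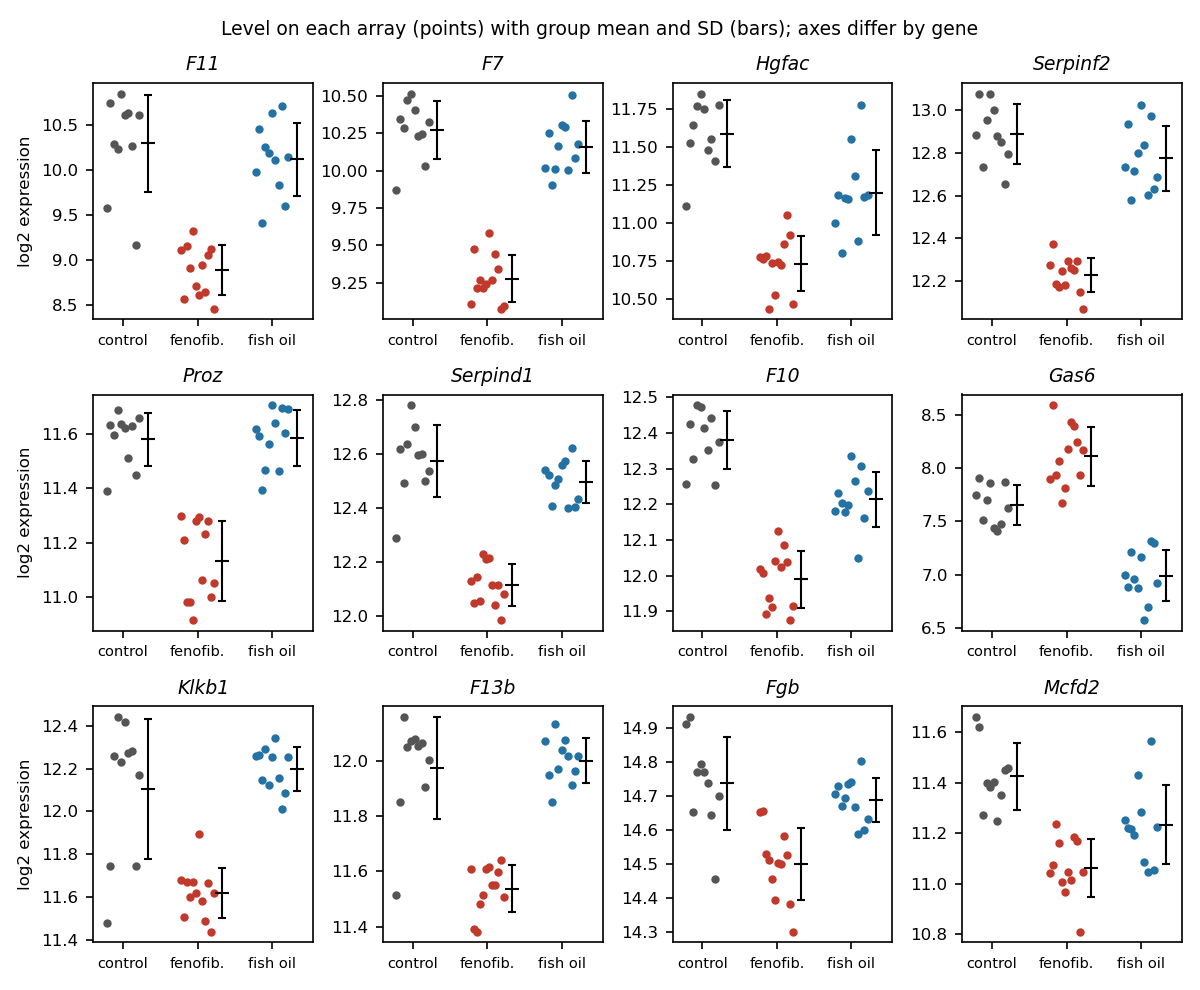
Log2 level on each array (points) with group mean and SD (bars) for 12 genes, one panel each, with axes that differ by gene and do not start at 0. For F7 and Serpinf2 the fenofibrate points form a separate low group, for Gas6 they are high and the fish oil points low, and for F10, Mcfd2 and Hgfac the fish oil mean lies between the other means.

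The vitamin K dependent inhibitors and Gas6 did not move as 1 group: 2 of 4 fell on fenofibrate, 1 rose and 1 was not called (median -0.20). Gas6, a vitamin K dependent ligand of the TAM receptor tyrosine kinases that is structurally related to protein S, was the only tested gene of the 31 called in opposite directions on the 2 diets. Control arrays of Gas6 ran from 7.41 through 7.66 to 7.91, fenofibrate arrays from 7.68 through 8.11 to 8.59, and fish oil arrays from 6.57 through 6.96 to 7.32. Fenofibrate overlapped the upper controls, and every fish oil array lay below every other array. Gas6 rose 1.37-fold on fenofibrate (0.45 ± 0.10, limma adjusted p = 4.35e-04) and fell 1.58-fold on fish oil (-0.66 ± 0.10, adjusted p = 1.61e-05). The direct difference between the diets was 2.17-fold (1.12 ± 0.10, adjusted p = 3.65e-11). Without control replicates 1, 2 and 9 the differences from control were 0.53 and -0.58 (adjusted p = 2.49e-04 and 3.93e-04).

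Proz, whose protein serves as the cofactor of an inhibitor of factor X, was at 11.39, 11.62 and 11.69 on control, at 10.92, 11.14 and 11.30 on fenofibrate and at 11.39, 11.60 and 11.70 on fish oil. Control and fish oil covered nearly the same range and fenofibrate lay wholly below both. Proz fell 1.36-fold on fenofibrate (-0.45 ± 0.05, limma adjusted p = 3.14e-08), and on fish oil its difference was 0.00 ± 0.05, within -0.11 to 0.11 (95% interval, adjusted p = 0.976). Proc, which encodes protein C, the protease that inactivates factors V and VIII, fell 1.35-fold on fenofibrate (-0.43 ± 0.05, adjusted p = 7.26e-08; -0.51, adjusted p = 5.92e-10, without control replicates 1, 2 and 9) and differed by 0.05 ± 0.05 on fish oil (adjusted p = 0.592). Pros1, its cofactor protein S, was not called on fenofibrate (0.03 ± 0.08, 95% interval -0.12 to 0.18, adjusted p = 0.783) or on fish oil (-0.09 ± 0.08, adjusted p = 0.470). Pros1 was called higher on fenofibrate than on fish oil in 1 alternative, with array weights (0.15, adjusted p = 0.0459), against 0.12 (adjusted p = 0.192) without them. Over all 8 vitamin K dependent proteins, 6 fell on fenofibrate and 2 on fish oil (F10 and Gas6).

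Among the other inhibitors 4 of 5 fell on fenofibrate (median -0.16) and 1 of 5 on fish oil (median -0.09). Serpind1, or heparin cofactor II, an inhibitor of thrombin, was at 12.29, 12.60 and 12.78 on control, at 11.98, 12.11 and 12.23 on fenofibrate and at 12.40, 12.51 and 12.62 on fish oil. Fenofibrate arrays were below all others, and fish oil arrays lay inside the control range. Serpind1 fell 1.38-fold on fenofibrate (-0.46 ± 0.05, limma adjusted p = 6.00e-10) and differed by -0.08 ± 0.05 on fish oil (adjusted p = 0.277), which was called with array weights (adjusted p = 0.0467). Serpinc1, which encodes antithrombin, was at 13.69, 13.83 and 13.87 on control, at 13.56, 13.65 and 13.76 on fenofibrate and at 13.69, 13.71 and 13.78 on fish oil. Most fish oil arrays were below most controls, but control replicate 3, the lowest, overlapped them.

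Serpinc1 fell 1.12-fold on fenofibrate (-0.16 ± 0.03, limma adjusted p = 2.80e-05) and 1.07-fold on fish oil (-0.09 ± 0.03, adjusted p = 0.0305). The fish oil call was lost without control replicate 5 or 6 (highest adjusted p = 0.0557), and with no filter, with the 2 groups alone and with consecutive label numbers as a random block (adjusted p = 0.0691, 0.0549 and 0.0703). The call of Serpinc1 between the diets (-0.07, adjusted p = 0.0474) was lost without any 1 of 21 arrays (highest adjusted p = 0.0856), and under 6 alternatives, among them the replicate block and the random block (adjusted p = 0.0874 and 0.0803). Apoh, a phospholipid-binding plasma protein, fell 1.11-fold on fenofibrate (-0.16 ± 0.03, adjusted p = 1.56e-04) and differed by -0.05 ± 0.03 on fish oil (adjusted p = 0.381).

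Thbd and Tfpi encode inhibitors that endothelial cells make, and both were dim here. Thbd, or thrombomodulin, the thrombin receptor that turns on protein C, fell 1.49-fold on fenofibrate (-0.57 ± 0.18, limma adjusted p = 0.0130), and without control replicates 1, 2 and 9 this was not called (-0.49, adjusted p = 0.0564). On fish oil Thbd differed by -0.46 ± 0.19 (adjusted p = 0.106), called, among the alternatives, only without control replicate 6 (adjusted p = 0.0465). Tfpi, the inhibitor of tissue factor and factor X, was not called on fenofibrate (0.01 ± 0.13) or fish oil (-0.24 ± 0.13). Its mean over 4 probe sets was called lower on fish oil than on control (-0.20, adjusted p = 0.0323) and higher on fenofibrate than on fish oil (0.29, adjusted p = 3.14e-04). The probe set that stood for the gene was not called in either (adjusted p = 0.247 and 0.122). Sinusoidal endothelial markers differed by diet too. The linear signals of the 14 markers were summed on each array, so the brightest probe sets count most. The log2 of this sum ran from 12.64 to 12.86 on control. It ran from 12.45 to 12.66 on fenofibrate and from 12.46 to 12.66 on fish oil. Of the 14, 6 fell, 1 rose (Lyve1, 0.78 ± 0.20) and 7 were not called on fenofibrate, and 5 fell and 9 were not called on fish oil. Among the markers called lower on both diets were Stab2 (-0.29 ± 0.05 and -0.16 ± 0.05) and Clec4g (-0.24 ± 0.06 on each diet). The part of these markers in the Thbd result was not tested.

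The 3 tested genes of fibrinolysis all fell on fenofibrate, with a median of -0.45, and 0 of 3 were called on fish oil (median -0.03). Serpinf2 encodes alpha-2-antiplasmin, the main inhibitor of plasmin. Its arrays were at 12.65, 12.88 and 13.08 on control, at 12.07, 12.25 and 12.37 on fenofibrate and at 12.58, 12.73 and 13.02 on fish oil. A gap separated all fenofibrate arrays from the other 2 groups, which overlapped. Serpinf2 fell 1.58-fold on fenofibrate (-0.66 ± 0.06, limma adjusted p = 2.07e-11) and differed by -0.12 ± 0.06 on fish oil (95% interval -0.23 to 0.00, adjusted p = 0.189). Plg, which encodes plasminogen itself, fell 1.24-fold (-0.31 ± 0.04, adjusted p = 5.00e-07), and Hrg, a plasminogen- and heparin-binding glycoprotein, fell 1.36-fold (-0.45 ± 0.05, adjusted p = 4.61e-08). On fish oil Plg and Hrg differed from control by -0.03 ± 0.04 and 0.05 ± 0.06 (adjusted p = 0.680 and 0.651).

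The plasminogen activators Plat and Plau and the urokinase receptor Plaur stayed below the filter on all arrays. Control means were 2.73 and 2.29 for the 2 Plat probe sets, 2.15 and 1.78 for the 2 Plau probe sets, and 2.91 for Plaur. Levels this low are near the array background. Fenofibrate means were 2.60 and 2.30 for Plat, 1.96 and 1.78 for Plau and 2.95 for Plaur. With no filter, the brighter Plau probe set was called lower on fenofibrate (-0.19 ± 0.06, limma adjusted p = 0.0244), and Plat and Plaur were not called (-0.12 and 0.04, adjusted p = 0.307 and 0.806). On fish oil 0 of the 3 were called with no filter (lowest adjusted p = 0.475).

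Of the enzymes of the vitamin K cycle and the receptor for secretion of factors V and VIII, 3 of 4 genes fell on fenofibrate (median -0.27) and 1 of 4 on fish oil (median -0.02). Ggcx, the carboxylase that modifies the vitamin K dependent factors, fell 1.26-fold (-0.33 ± 0.06, limma adjusted p = 7.97e-05), and its second probe set differed by -0.41. Vkorc1, the reductase that regenerates vitamin K and is the target of warfarin, fell 1.13-fold (-0.17 ± 0.04, adjusted p = 0.00229). On fish oil Ggcx and Vkorc1 differed by 0.01 ± 0.07 and 0.02 ± 0.05 (adjusted p = 0.937 and 0.848).

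Mcfd2, a subunit of the export receptor, was at 11.25, 11.40 and 11.66 on control, at 10.81, 11.05 and 11.24 on fenofibrate and at 11.05, 11.22 and 11.57 on fish oil. The fenofibrate arrays lay just below all controls, and fish oil spanned both. Mcfd2 fell 1.29-fold on fenofibrate (-0.36 ± 0.06, limma adjusted p = 8.36e-06) and 1.14-fold on fish oil (-0.19 ± 0.06, adjusted p = 0.0303). The fish oil call of Mcfd2 did not hold when any 1 of fish oil replicates 7, 8 and 10 or of control replicates 1 and 2 was left out (highest adjusted p = 0.0628), and without control replicates 1, 2 and 9 together its adjusted p was 0.183. Its difference between the diets (-0.17, adjusted p = 0.0187) was -0.09 (adjusted p = 0.254) without the arrays with a letter A in their label. Lman1, the other subunit, was not called on fenofibrate at its brightest probe set (-0.21 ± 0.09, adjusted p = 0.0730). Tested by themselves, the other 3 probe sets of Lman1 above the filter were called lower, by -0.34, -0.52 and -0.45, and the brightest was called without control replicate 5 or 8 or fenofibrate replicate 9 (lowest adjusted p = 0.0156).

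Hgfac encodes the activator of hepatocyte growth factor, a serine protease related to factor XII. Its arrays ran from 11.11 through 11.60 to 11.85 on control, from 10.43 through 10.75 to 11.05 on fenofibrate and from 10.80 through 11.17 to 11.78 on fish oil. Fenofibrate arrays lay below all controls, and fish oil arrays overlapped both groups. Hgfac was 1.81-fold lower on fenofibrate (-0.86 ± 0.10, limma adjusted p = 9.59e-09) and 1.31-fold lower on fish oil (-0.39 ± 0.10, adjusted p = 0.00585). Fenofibrate was lower than fish oil by -0.47 ± 0.09 (1.38-fold, adjusted p = 1.58e-04). Without control replicates 1, 2 and 9 its falls were -0.96 and -0.49 (adjusted p = 3.84e-09 and 8.92e-04). Hgfac, F10, Kng1 and Gas6 kept their fish oil calls when each array was left out in turn.

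Clotting genes outside the 36 were less uniform. Of 38 further haemostasis genes 21 were tested, and on fenofibrate 9 fell and 6 rose (median -0.15). C4bp, which encodes a complement regulator, fell by 1.01 ± 0.06 (limma adjusted p = 2.33e-14). Anxa2, a cell-surface co-receptor of plasminogen, rose by 1.82 ± 0.16 (adjusted p = 2.36e-11). Cpn1 and Cpn2 encode the 2 subunits of carboxypeptidase N, which trims kinins. Cpn2 fell on fenofibrate (-0.59 ± 0.06, adjusted p = 4.29e-10) while Cpn1 rose (0.25 ± 0.04, adjusted p = 8.43e-07), and Cpn1 fell on fish oil (-0.25 ± 0.04, adjusted p = 5.67e-06), the same pair of signs as Gas6. On fish oil 3 of the 21 fell, Cpn1, Mst1 and Hgf. Hgf, the substrate of the Hgfac protease, fell by 0.53 ± 0.13 on fenofibrate (adjusted p = 0.00193) and by 0.41 ± 0.14 on fish oil (adjusted p = 0.0375).

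**Figure D4:**
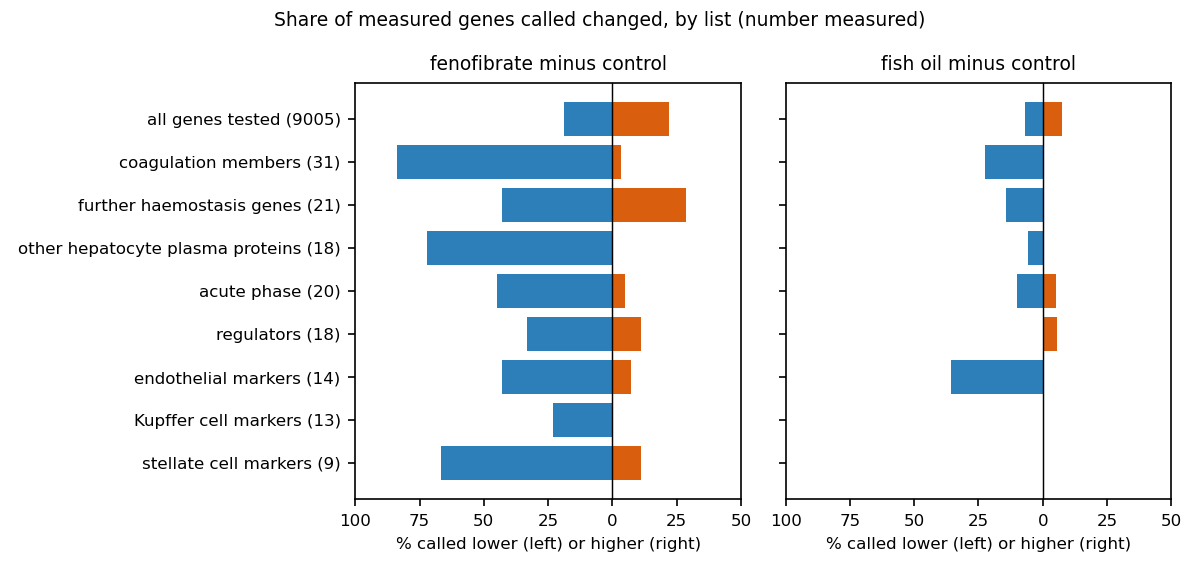
Percentage of the tested genes of each list called lower (bars to the left) or higher (bars to the right) for fenofibrate minus control and fish oil minus control; the number tested is in brackets. On fenofibrate 83.9% of the 31 clotting genes were called lower against 18.9% of all genes, and on fish oil 22.6% against 7.00%.

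Plasma proteins with other functions were also lower on fenofibrate: 13 of 18 other hepatocyte plasma proteins fell and 0 rose (median -0.24). Itih1 and Itih2, heavy chains of the inter-alpha-trypsin inhibitor, fell by 0.71 ± 0.05 and 0.56 ± 0.04 (limma adjusted p = 2.95e-13 and 1.12e-12). Alb, the albumin gene, was not called (-0.02 ± 0.03, adjusted p = 0.638). The Alb probe set lay at 14.82 to 15.02, near the top of the measured range (15.6), where differences can be compressed. On fish oil 1 of these 18, Apoa1, fell (-0.14 ± 0.04, adjusted p = 0.00607). Of 20 acute phase genes 9 fell and 1 rose on fenofibrate (median -0.55), and 2 fell and 1 rose on fish oil (median -0.12). Control replicates 1 and 2 were the highest controls in this list. Without control replicates 1, 2 and 9, 6 fell and 2 rose on fenofibrate (median -0.22), and 2 fell and 5 rose on fish oil (median 0.19). Without fish oil replicate 9, 13 fell and 1 rose on fenofibrate, and 3 fell and 0 rose on fish oil. The fenofibrate median stayed at -0.55, because that array enters this comparison only through the estimate of spread that the groups share. Of 18 tested regulators of such genes 6 fell and 2 rose on fenofibrate. These included Hnf4a, a receptor that binds DR1 elements (-0.42 ± 0.06, adjusted p = 3.90e-07), Foxa3 (-0.92 ± 0.12, adjusted p = 8.50e-08) and Il6ra, the interleukin-6 receptor (-1.71 ± 0.26, adjusted p = 3.00e-06). None of these 3 was called on fish oil (0.06, -0.16 and 0.09, limma adjusted p = 0.585, 0.397 and 0.870).

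Some markers of the other liver cells also differed by diet. The log2 of the summed linear signals of 9 tested stellate cell markers was 12.92 to 13.18 on control. It was 12.69 to 12.93 on fenofibrate and 12.91 to 13.17 on fish oil. Of these 9, 6 were called lower and 1 higher on fenofibrate, and 0 were called on fish oil. The log2 of the same sum over the 13 Kupffer cell markers was 13.57 to 14.11, 13.14 to 13.91 and 13.49 to 14.11. Of the 13, 3 were called lower on fenofibrate and 0 were called on fish oil. Over all genes, 18.9% were called lower on fenofibrate and 7.00% on fish oil, so the Kupffer cell count on fenofibrate was near that share. Of 11 platelet and blood cell markers 3 were tested, and Alas2, an erythroid enzyme, fell on fenofibrate (-1.04 ± 0.18, limma adjusted p = 1.38e-05). Of 5 cholangiocyte markers only Sox9 was tested and it was not called (-0.18 and -0.04). The part of these cells in the differences of the clotting genes was not tested.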

How the data were processed

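Liver RNA (5 µg per labelling, RNA integrity number above 8) of 33 mice was hybridised to 1 array each. The authors deposited log2 levels for each probe set. They computed these with GCRMA 2.24.1, as the submitters' processing notes list it. This method corrects background from probe sequence and equalises array distributions, so a shift common to all genes cannot be seen and dim differences are compressed. Of 45101 probe sets, 34945 carry 1 gene in the platform annotation; symbols were updated to GRCm38.p6 for 34741. Probe sets at 4 or above on at least 10 arrays were kept (17162, of which 15203 carry 1 gene), and the one with the highest mean stood for its gene, which gave 9005 genes. Levels were fitted with limma 3.58.1 (statmod 1.5.0, R 4.3.3; lmFit, contrasts, eBayes) over the 3 groups, two-sided, with Benjamini-Hochberg adjustment in each of 3 comparisons. The code was tested on simulated data.

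The 36 genes and the other lists were chosen with earlier results of these data known, so they are no independent support for a pattern. Values by array are given for the called genes with the largest differences (4 per direction and comparison). They are also given for the gene with the smallest adjusted p of each role in both comparisons with control. The same holds for genes called with opposite signs. From other lists at most 3 genes per comparison were named, some with a value from another comparison beside it. Outside this rule, Alb, Lyve1 and the differences of the 6 hepatocyte markers were given after their values were seen. Alternatives were other filters, probe set rules, array centring, variance models, array weights, the 2 groups alone, a replicate block, consecutive label numbers as a random block, and leaving out each array or the arrays with a letter A; leaving out control replicates 1, 2 and 9, or 1 and 2, and list counts without fish oil replicate 9, were added after seeing the data. Arrays have no read depth, and their number limits the precision.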

Additional observations from a re-analysis of the deposited data

Results flagged for a closer look

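Of the 31 tested genes, 4 had 1 control array far from the other 9, by a test that flags about 1 in 20 groups by chance. F13b was at 11.51 in control replicate 1, where the next lowest control was at 11.85. F5 was at 12.14 in the same array, with the next lowest at 12.45. F9 was at 11.75 in control replicate 2, above the next highest control at 11.50. Serpinc1 was at 13.69 in control replicate 3, below the next lowest at 13.78. The fenofibrate calls of these 4 genes held when each of the 33 arrays was left out in turn.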

How the results depend on the processing

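No called gene changed direction under any alternative. On fenofibrate the count of genes lower than control was 26 and stayed between 25 and 27 over the alternatives (26 to 27 when each array was left out in turn), and the count higher stayed at 1. The count lower on fish oil was 7 and was less firm. It was 4 with no filter on dim probe sets, 4 with the arrays of the 2 groups alone and 4 with consecutive label numbers as a random block, which lost F12, Serpinc1 and Mcfd2, and 10 with array weights. It ran from 5 to 8 when each array was left out, and the count higher on fish oil stayed at 0. Between the diets the count lower was 23 (21 to 25 over the alternatives, 22 to 25 leaving out each array). The count higher was 1, and became 2 with the mean of a gene's probe sets and with every probe set tested by itself (Tfpi), with array weights (Pros1) and without the arrays with a letter A (F3); the cause was not tested. With the replicate block the counts lower were 26 on fenofibrate, 5 on fish oil and 22 between the diets. Replicate numbers do not pair the mice: deviations of same-numbered arrays had a median correlation of 0.05 (31 pairs, -0.21 to 0.35). Differently numbered arrays of other groups had a median of -0.02 (331 pairs). Arrays with consecutive label numbers had a median of 0.14 over 16 pairs, against -0.13 over 150 other pairs of the same group. The fitted correlation of consecutive arrays was 0.23, so standard errors from independent arrays may be too small. Signal near background limits F3, Tfpi, Thbd and the plasminogen activators, and signal near the top of the range limits the fibrinogens. It may also limit other bright probe sets, such as those of Apoh, Kng1, Serpinc1 and Alb.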
